A study of Mus musculus with 66 samples.

Results

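The comparison described here is between cultured mouse neurons that received a short hairpin RNA (shRNA, an RNA that lowers the mRNA it matches) against Tbr1 and sister cultures that received a nontargeting shRNA. It takes 12 of the 66 libraries of the series, 6 with Tbr1 shRNA and 6 with nontargeting shRNA, with 3 of each from female and 3 from male embryos. All neurons came from wildtype e16.5 embryos and were infected with lentivirus, which was washed off on day 6 in culture before lysis on day 10. The control columns of the table carry the name of a luciferase hairpin and were read as the nontargeting group of the labels. The rest of the series holds the same kind of culture with shRNA against 8 other genes (Ash1l, Chd8, Dnmt3a, Kdm6b, Kmt2c, Mbd5, Med13l and Setd5) or without virus. The series asks how depletion of genes linked to autism changes transcription in each sex. Virus doses were set by the submitters so that a target would keep about 50% of its mRNA. The labels name wells infected in triplicate and not separate embryos or cultures, so p-values may measure technical spread between wells. Whole mixed cultures were sequenced, so that fewer cells of a type and less RNA per cell cannot be told apart.

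TBR1 is a T-box transcription factor of postmitotic glutamatergic neurons in the cerebral cortex. It is known for the identity and axon projections of deep-layer neurons that project to the thalamus, where it restrains genes of other projection neurons, and for binding partners such as CASK and FOXP2. Variants in the human gene are associated with autism and intellectual disability.

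Total counts in the 12 libraries ranged from 23830635 to 56017455. Markers of neurons were abundant. The summed level of 16 GABAergic neuron genes was 2342 to 3166 counts-per-million (CPM, scaled to library size) with Tbr1 shRNA and 2816 to 3645 CPM with nontargeting shRNA, and that of 12 glutamatergic neuron genes was 2429 to 2770 and 2539 to 2899 CPM. Astrocyte and radial glia genes (15) summed to 509 to 901 and 556 to 848 CPM, microglia genes (10) to 9.34 to 11.5 and 9.02 to 13.6 CPM. No gene of these lists was at a count of 0 in all 12 libraries.

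Tbr1 itself lies on chromosome 2 of the GRCm38 mouse genome (chr2:61802930-61814114, plus strand) and was lower in each Tbr1 shRNA library than in each nontargeting library. With nontargeting shRNA it measured 47.8, 70.3 and 47.8 CPM in the female libraries 1 to 3 and 51.9, 52.5 and 54.7 CPM in the male ones. With Tbr1 shRNA it measured 15.6, 34.7 and 15.7 CPM in females and 18.4, 15.5 and 23.3 CPM in males. The groups did not overlap, and female library 2 was the highest of its group under both hairpins. The fit gave −1.45 on the log2 scale, with a standard error (SE) of 0.0851 and an edgeR adjusted p of 1.52e-08, which left 36.7% of the nontargeting level. Over the 6 pairs of libraries with the same sex and number the log2 difference was −1.45 ± 0.28 (SD, n = 6 pairs), with a two-sided exact permutation p of 0.03125, the smallest that 6 pairs can give. On the scale of all 66 libraries the 6 Tbr1 shRNA libraries spanned 15.3 to 34.3 CPM and the 60 others 33.7 to 78.0 CPM, so that the highest of the first lay just above the lowest of the others.

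**Figure D1:**
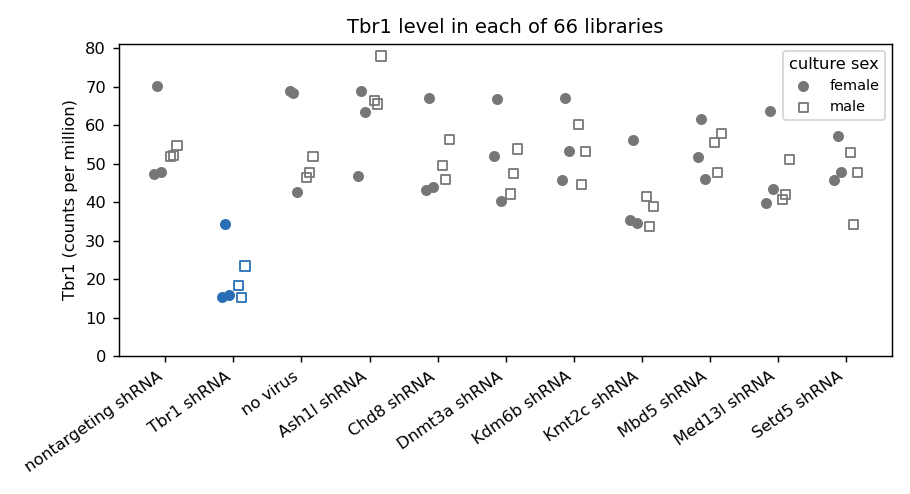
Tbr1 in CPM (vertical axis) in each of the 66 libraries, by condition (horizontal axis), with filled circles for female and open squares for male cultures. The 6 Tbr1 shRNA libraries (blue) lie between 15.3 and 34.3 CPM, and the 6 nontargeting libraries all lie above them.

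Of 15042 genes tested with edgeR's quasi-likelihood test, with sex and replicate number as a block, 2235 changed at an adjusted p under 0.05 (14.9%). Of these, 947 rose (6.30%) and 1288 fell (8.56%). Most changes were small. The absolute log2 fold change was under 0.25 for 730 of the called genes, 0.25 to 0.5 for 1112, 0.5 to 1 for 344 and at least 1 for 49, of which 23 rose and 26 fell. The median was 0.28 among genes that rose and −0.33 among those that fell, while that of all genes tested was 0.004. Among the called genes 1780 had the same direction in all 6 pairs, against 18.2% of all genes tested. In 271 of them the groups did not overlap, against 1.93% of all genes tested. The count leaned on the block and on 1 pair. It was 187 without the block (33 higher, 154 lower) and 1367 without the second male pair.

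Genes named for the largest falls had at least 5 CPM and 1 direction in all 6 pairs. Hapln1, which encodes a link protein of the hyaluronan matrix around neurons, spanned 19.99 to 75.2 CPM (median 57.3) with Tbr1 shRNA and 82.9 to 242 CPM (median 152) with nontargeting shRNA. The fitted log2 value was −1.57 (SE 0.165, edgeR adjusted p = 7.79e-04). Slc1a2, the main glutamate transporter of astrocytes, spanned 74.2 to 145 CPM (median 108) against 196 to 367 CPM (median 250), a log2 fold change of −1.34 (SE 0.0666, edgeR adjusted p = 7.57e-10). Kcnq3, a subunit of the potassium channel that carries the M-current, spanned 35.5 to 63.7 CPM against 85.0 to 130 CPM, with −1.23 (SE 0.0876). In these 3 genes the highest Tbr1 shRNA library lay below the lowest nontargeting library. Chrna7, a nicotinic acetylcholine receptor subunit, spanned 11.4 to 21.4 CPM against 28.2 to 49.1 CPM (log2 −1.22), and Col19a1, a non-fibrillar collagen, 6.43 to 13.1 CPM against 17.9 to 24.6 CPM (log2 −1.19). The groups of both genes were separate. The remaining members of the 12 largest falls, beside Tbr1, were Rcan2, a regulator of calcineurin (−1.30), the RNA-binding protein gene Samd4 (−1.22), the lectin-like gene Clec2l (−1.19), Xk (−1.08), the acyltransferase gene Lpgat1 (−1.06) and Adamtsl1, of the extracellular matrix (−0.96). In 9 of these 12 genes the groups did not overlap. The exceptions were Rcan2, Xk and Adamtsl1.

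Genes that rose furthest included several of glucose handling. Txnip, whose product binds thioredoxin and restrains glucose uptake, spanned 11.8 to 52.9 CPM (median 28.3) with Tbr1 shRNA and 5.2 to 16.8 CPM (median 12.7) with nontargeting shRNA, a log2 fold change of 1.29 (SE 0.182, edgeR adjusted p = 0.00167). Hk2, a hexokinase, spanned 46.3 to 111 CPM against 13.3 to 67.1 CPM (log2 1.05, SE 0.251, edgeR adjusted p = 0.0399). Slc2a1, a glucose transporter, spanned 30.2 to 75.3 CPM against 14.9 to 52.0 CPM (log2 0.76, SE 0.184). In all 3 genes the highest nontargeting library exceeded the lowest Tbr1 shRNA library, although each pair was higher with Tbr1 shRNA. The mitochondrial protein gene Mgarp (1.08) and the mitochondrial adenylate kinase gene Ak4 (0.88) also rose, as did the carbonic anhydrase gene Car12 (0.96), the matrix gene Fbln2 (1.0), the protease inhibitor gene A2m (0.95), the chromatin protein gene Hmgb2 (0.84), Stom (0.76), the astrocyte filament gene Gfap (0.74) and the copper transporter gene Atp7b (0.74). The groups overlapped in all 12 of the largest rises.

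**Figure D2:**
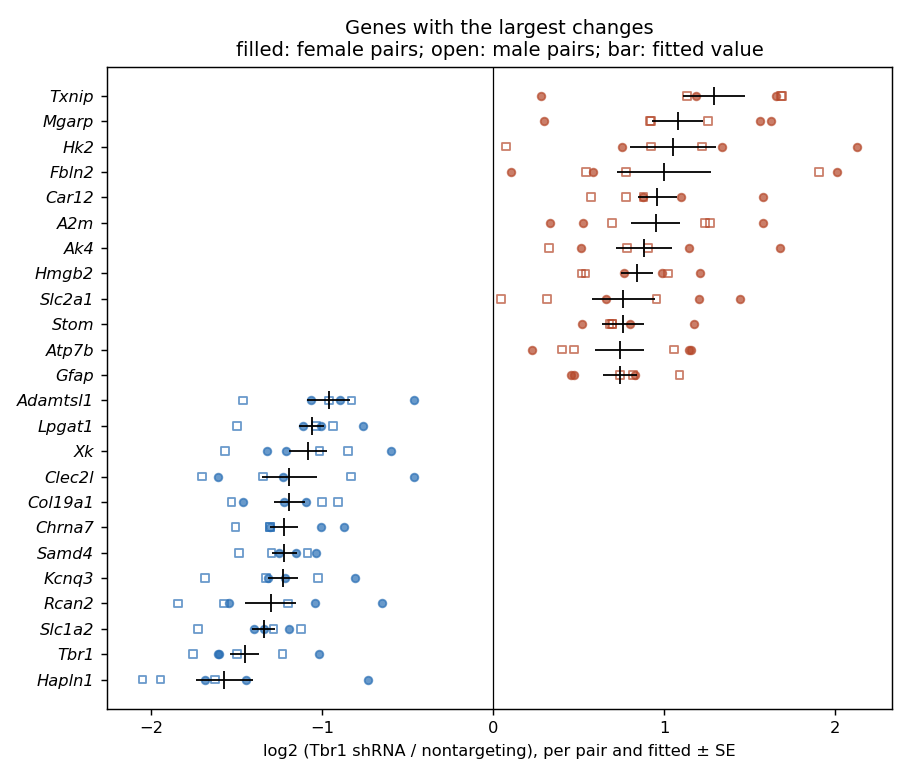
Log2 ratio of Tbr1 shRNA to nontargeting shRNA (horizontal axis) for the 12 genes with the largest rise and the 12 with the largest fall, with filled circles for the 3 female pairs, open squares for the 3 male pairs and a black tick with a bar for the fitted value and its SE. All 6 pairs lie on 1 side of 0 for every gene, and the fitted values run from −1.57 (Hapln1) to 1.29 (Txnip).

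The 3′ untranslated regions (UTRs) of the genes that fell held a short word more often than those of other genes. Cells cut a hairpin RNA into a small RNA that directs cleavage of the mRNA it matches, and small RNAs can also lower mRNAs that match only their seed, usually in the 3′ UTR. In 13726 tested genes with an annotated 3′ UTR, each of 14024 words of 7 letters was ranked by the mean log2 fold change of genes with the word minus genes without it, within 10 classes of 3′ UTR length. The ranking was made in male libraries. ACACAAC was the lowest there (−0.165) and CACAACT the next (−0.143), while the 1st and 99th percentiles of all words were −0.043 and 0.035. In the female libraries, which were not used to choose the words, the same 2 words again ranked 1 and 2 (−0.134 and −0.114), with percentiles of −0.037 and 0.029. The words overlap by all but 1 letter and join into ACACAACT. Sites are printed for Tbr1 and for 6 genes that fell, 5′ to 3′ on the strand of the mRNA, with these 8 letters in capitals and GRCm38 positions.
Tbr1, coding sequence in exon 5, chr2:61808499-61808520, plus strand: attACACAACTaaaaatagatc
Slc1a2, 3′ UTR, chr2:102782786-102782815, plus strand: agaacggctctACACAACTttccagataga
Kcnq3, 3′ UTR, chr15:65986594-65986623, minus strand: cttacacgggaACACAACTattccacaagt
Clec2l, 3′ UTR, chr6:38680837-38680864, plus strand: atggaataaagACACAACTgcatctctg
Epdr1, 3′ UTR, chr13:19592330-19592359, minus strand: aaactctttcaACACAACTgtgtctatatg
Scn3a, 3′ UTR, chr2:65458368-65458397, minus strand: ggtaaaaatttACACAACTaaagaaaacct
Nlk, 3′ UTR, chr11:78567783-78567812, minus strand: ctcctggagttACACAACTtggcttgttac

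The 8-letter word stood once in the Tbr1 coding sequence, at base 1132 of 2046, and in neither of its UTRs. It was present in the coding sequence of 305 of 13900 genes (2.19%). The sequence of the Tbr1 hairpin is not given in the sources used here, so its match to this site was not tested.

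In the female libraries the median log2 fold change was −0.17 for genes with the 8-letter word in the 3′ UTR (329 genes), −0.10 for those with only a 7-letter word (1343 genes) and 0.02 for those with neither (12054 genes). In the pooled fit, which includes the male libraries used to choose the words, 35%, 26.4% and 6.4% of these classes fell. In the same fit 1.5%, 2.6% and 7.0% rose. With 2 or more copies of either 7-letter word 42.5% of 252 genes fell, and with 1 copy 25.6% of 1420. Either word was present in 470 of the 1239 fallen genes with a 3′ UTR (37.9%), in 40 of the 878 risen genes (4.6%) and in 12.2% of all tested genes. The median 3′ UTR length was 2205 bases in the fallen genes, 926 in the risen genes and 1021 in all. Among genes with a 3′ UTR above that last length the shares were 44.2%, 8.0% and 20.3%. In every pair the genes with a word were lower, by a mean log2 difference of −0.156, −0.073 and −0.127 in female pairs 1 to 3 and −0.138, −0.187 and −0.126 in male pairs 1 to 3. The words were chosen in the male libraries, so only the female pairs are free of that choice.

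In the pooled fit the difference was −0.135 for words in the 3′ UTR, −0.031 for words in the coding sequence and −0.041 for words in the 5′ UTR. In the female libraries alone these values were −0.12, −0.02 and −0.052. In the fit of all 66 libraries, male ones included, the 3′ UTR difference was −0.137 for Tbr1 shRNA. It was between −0.020 and 0.005 for the 8 other knockdowns and 0.002 for no virus, all against the same nontargeting libraries. Against the mean of the 8 other knockdowns, without nontargeting libraries, it was −0.128. Of the 12 largest falls, Slc1a2, Kcnq3 and Clec2l held the 8-letter word in the 3′ UTR and Rcan2, Xk and Adamtsl1 a 7-letter word. Among all fallen genes with a 3′ UTR 37.9% held either 7-letter word. None of the 12 largest rises held one, where 4.6% of all risen and 12.2% of all tested genes did. Both sets of 12 come from the pooled fit, which includes the male libraries used to choose the words. Hapln1, Samd4, Chrna7, Col19a1 and Lpgat1 held none in the annotated 3′ UTR used. The part of this word in the changes described below was not tested. Among genes without either word, 769 fell and 838 rose.

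**Figure D3:**
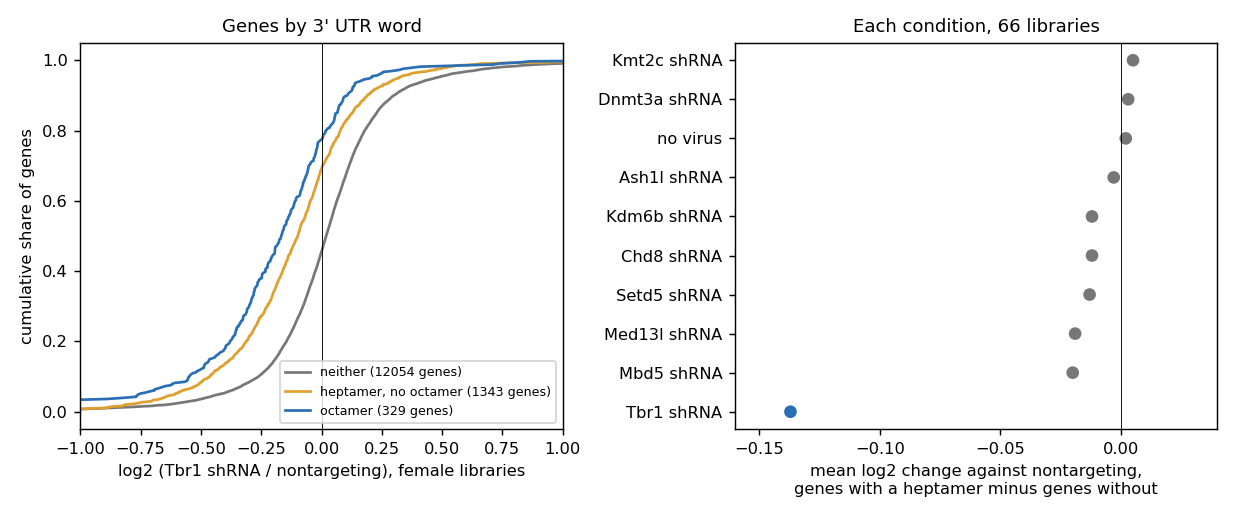
Left, the cumulative share of genes (vertical axis) by log2 fold change in the female libraries (horizontal axis) for genes with the 8-letter word in the 3′ UTR (blue, 329 genes), with only a 7-letter word (orange, 1343) or with neither (grey, 12054). Right, the mean log2 change of genes with a 7-letter word minus genes without, for each condition against nontargeting shRNA, where Tbr1 shRNA stands at −0.137 and the 8 other knockdowns lie between −0.020 and 0.005. The right panel includes the male libraries used to choose the words.

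Of 12 genes reported in the literature as TBR1 targets, 1 rose (8.3%) and 4 fell (33.3%), against 6.30% and 8.56% of all genes tested. The list median was a log2 fold change of −0.14. Auts2, a nuclear regulator linked to autism that TBR1 is reported to switch on, fell from 39.97 to 54.7 CPM (median 49.2) to 31.7 to 44.1 CPM (median 34.7), a log2 fold change of −0.42 (SE 0.0636, edgeR adjusted p = 1.98e-04) in 6 of 6 pairs. The ranges overlapped. Foxp2 (−0.38), the Wnt ligand gene Wnt7b (−0.30) and the repressor gene Bcl6 (−0.36) also fell, Bcl6 narrowly (edgeR adjusted p = 0.0496). The adhesion gene Cdh8 rose by 0.30. Foxp2 held a 7-letter word in its 3′ UTR and the other 4 did not. The best known genes of the list did not pass. Reln measured −0.14 (SE 0.0802), the NMDA receptor gene Grin2b −0.19 (SE 0.144), Fezf2 0.01 (SE 0.0677) and Bcl11b −0.05 (SE 0.0511). Without the block none of the 12 passed. Against the mean of the 8 other knockdowns 3 of the 12 were lower and 2 higher, Cdh8 (0.27) and Ntng1 (0.45). Bcl6 (−0.17) did not pass there.

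Of the T-box relatives, Eomes (−0.30, edgeR adjusted p = 0.13) and Tbx21 (−0.60, edgeR adjusted p = 0.519) did not pass, and Tbx21 was at most 1.17 CPM in any library. Of 4 partner genes, Foxp2 and Cask (−0.25), a scaffold kinase that TBR1 binds, fell, both with a 7-letter word in the 3′ UTR. Tspyl2 measured 0.00 and Foxp1 0.10. The core of the T-box motif, AGGTGT on either strand, occurred in 13.7% of RefSeq promoters (GRCm38, 250 bases before to 50 after the start) of genes that fell, 13.8% of those that rose and 13.3% of all tested genes with a promoter sequence. The longer TCACACCT occurred in 0.8%, 1.1% and 1.1%.

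Layer identity genes changed in part. In the deep-layer list of 16 genes Tbr1, Foxp2, Nfib (−0.20) and Syt6 (−0.22) fell, Crym rose (0.33), and 11 did not pass, with Tle4 at −0.05, Sox5 at −0.11 and Etv1 at 0.20. In the upper-layer list of 13 genes 5 fell and none rose. They included the transcription factor genes Cux2 (−0.50), Lhx2 (−0.52) and Rorb (−0.38), and the list median was −0.19. Cux2, as an example, spanned 37.1 to 71.2 CPM (median 41.8) against 54.2 to 75.7 CPM (median 60.8), with overlap between the groups. Without the block none of the 13 passed. In the list of Cajal-Retzius and subplate neurons Trp73 (−0.70) and Nxph3 (−0.39) fell among 8 genes tested.

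Of the transmitter identity genes a minority fell. The vesicular glutamate transporters Slc17a7 (−0.37) and Slc17a6 (−0.34) and the receptor gene Gria1 (−0.18) fell among 12 glutamatergic genes, and 9 did not pass. Among 16 GABAergic genes 4 fell, none rose and 12 did not pass, among them Gad1 (−0.05, edgeR adjusted p = 0.527) and the vesicular GABA transporter gene Slc32a1 (−0.05, edgeR adjusted p = 0.668). Gad2, which makes GABA, spanned 178 to 272 CPM (median 255) against 253 to 390 CPM (median 347), a log2 fold change of −0.48 (SE 0.0493, edgeR adjusted p = 3.6e-06), and was lower in 6 of 6 pairs. The interneuron transcription factor gene Lhx6 fell by 0.50 and the neuropeptide gene Vip, which held the 8-letter word in its 3′ UTR, by 0.62. Against the mean of the 8 other knockdowns Lhx6 was also lower (−0.33, edgeR adjusted p = 0.00338), while Gad2 (−0.20, edgeR adjusted p = 0.124) and Vip (0.06) did not pass. Slc32a1 (0.47, edgeR adjusted p = 5.52e-04) and Gad1 (0.24, edgeR adjusted p = 0.0131) were higher there. The summed GABAergic level was lower with Tbr1 shRNA in 6 of 6 pairs, and without the block none of the 16 genes passed. The summed glutamatergic and deep-layer levels, the latter counting Tbr1, were also lower in 6 of 6 pairs, and the upper-layer level in 5.

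Astrocyte and radial glia genes moved both ways. Gfap (0.74), Aldoc (0.71), Vim (0.51), Nes (0.48) and Fabp7 (0.43) rose, and Slc1a2 (−1.34), Gja1 (−0.41) and Hes5 (−0.83) fell, among 15 genes. Of all genes tested 6.30% rose and 8.56% fell. With the block in all 66 libraries 2 of the 15 rose and 1 fell, and without the block none rose and 1 fell. Against the mean of the 8 other knockdowns 6 of the 15 were higher and 1 lower. Fabp7 (0.34), Gja1 (−0.19) and Hes5 (−0.44) did not pass there. Vim, an intermediate filament gene, spanned 55.6 to 85.9 CPM against 39.0 to 55.1 CPM, so that its groups did not overlap. Slc1a3, the other glial glutamate transporter, measured 0.01 (SE 0.0725), and the summed level of the list was lower with Tbr1 shRNA in 4 of 6 pairs. No gene passed among 8 oligodendrocyte lineage, 4 microglia and 8 endothelial and meningeal genes tested with edgeR. Of 13 cell-cycle genes Mcm2 rose (0.65) and Top2a fell (−0.84).

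Of 24 synaptic adhesion genes 10 fell (41.7%) and none rose, against 8.56% and 6.30% of all genes tested, with a list median of −0.16. Cntnap4, of the neurexin superfamily, spanned 45.8 to 82.0 CPM (median 60.7) against 78.2 to 119 CPM (median 102), a log2 fold change of −0.70 (SE 0.0697, edgeR adjusted p = 3.1e-06), and the groups overlapped slightly. Lrrtm2 (−0.51), Nrxn3 (−0.39) and Lrrc4 (−0.30) fell in 6 of 6 pairs, and the neuroligin genes Nlgn1 (0.03), Nlgn2 (−0.06) and Nlgn3 (−0.11) did not pass. Of the 10 that fell, 4 held a 7-letter word, as did 6 of the 24 tested and 37.9% of all fallen genes with a 3′ UTR. These calls include the male libraries used to choose the words. In the fit of all 66 libraries and with no virus as control 6 of the list fell, and without the block 1. The list median against the same nontargeting libraries was −0.32 or higher in the 8 other knockdowns and in none of them above 0, so that the value for Tbr1 shRNA lay within their range. Against the mean of those 8, 5 of the 24 genes were lower, and Slitrk5 (0.31) and Ntng1 (0.45) were higher.

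Of 22 glutamate receptor genes 6 fell and none rose. Gria3, an AMPA receptor subunit gene without the word, spanned 34.99 to 62.9 CPM against 65.95 to 89.4 CPM, with no overlap and a log2 fold change of −0.79 (SE 0.0673, edgeR adjusted p = 6.06e-07). Grin3a (−0.42), Grik3 (−0.31) and Grm2 (−0.31) also fell. Of 14 GABA receptor genes 5 fell, among them Gabrb1 (−0.65), Gabrb2 (−0.39) and Gabrg3 (−0.38), and 1 rose. A 7-letter word was present in 3 of the 5 that fell and in 3 of the 14 tested, against 37.9% of all fallen genes with a 3′ UTR. Of 26 genes of vesicle release 5 fell, including the SNARE gene Snap25 (−0.38) and the vesicle protein gene Sv2a (−0.36), while Syt4 (0.36) and Vamp2 rose. Here too 3 of the 5 that fell held a 7-letter word, as did 7 of the 26 tested. Whether these small counts differ from those of other fallen genes was not tested. Against the mean of the 8 other knockdowns 3 glutamate receptor genes were lower and none higher, and of the GABA receptor genes 3 were lower and 2 higher. Of the 26 vesicle release genes 6 were higher there, namely Syn2 (0.38), Syt1 (0.40), Syt4 (0.25), Vamp2 (0.36), Cplx1 (0.36) and Cplx2 (0.17). Snap25 (−0.34) was lower, and the others did not pass. Of all genes tested in that comparison 8.78% were higher and 8.26% lower. Cplx2 was lower against nontargeting shRNA (−0.21). Without the block 2 glutamate receptor genes, 0 GABA receptor genes and 1 vesicle release gene fell by edgeR. Of 16 scaffold genes Homer2 (−0.35) and Gphn (−0.21) fell and Homer1 (0.18) rose.

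Ion channel genes fell in part. Of 33 potassium channel genes 12 fell (36.4%) and 2 rose, with a list median of −0.20. Beside Kcnq3 these included Kcnj6 (−0.74), Kcnh1 (−0.47) and Kcna2 (−0.39). With no virus as control 6 of the list fell, and without the block 1 fell and 1 rose. The list median ran from −0.38 to 0.02 in the 8 other knockdowns against the same nontargeting libraries, a range that holds the value for Tbr1 shRNA. Against their mean 6 of the 33 were lower, and Kcnc2 (0.41), Kcnj10 (0.70) and Kcnip1 (0.35) were higher. Of 30 sodium, calcium and HCN channel genes 7 fell and 1 rose, against 8.56% and 6.30% of all genes tested. Without the block 1 fell and none rose, and against the 8 other knockdowns 5 were higher and 3 lower. Scn3a, a sodium channel gene with the 8-letter word, spanned 47.3 to 70.4 CPM against 82.6 to 101 CPM, with no overlap (log2 −0.61, SE 0.0654, edgeR adjusted p = 5.44e-06). Cacnb2 (−0.41), Cacna1b (−0.28) and Cacna2d1 (−0.23), of calcium channels, fell less.

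Among genes of axon guidance 6 of 38 fell (15.8%) and 2 rose (5.3%), against 8.56% and 6.30% of all genes tested. Against the mean of the 8 other knockdowns 7 were higher and 6 lower, and without the block none passed. The secreted repellent gene Sema3a fell by 0.38, the plexin genes Plxna2 by 0.31 and Plxna1 by 0.28, and the Slit receptor gene Robo2 by 0.34. Nrp1, which encodes a receptor that binds Sema3a, rose by 0.27 and Sema3c by 0.21. Of 23 cadherin and contactin genes 2 fell and 2 rose (8.7% each way), near the shares over all genes, and without the block none passed with edgeR. Of 26 collagen, laminin and tenascin genes 7 fell and none rose, led by Col19a1 and including Lama3 (−0.65), Tnr (−0.47) and Col25a1 (−0.45). A 7-letter word was present in the 3′ UTR of 4 of the 7 and of 4 of the 26 tested, against 37.9% of all fallen genes. Without the block 1 of the 26 fell. The 8 tested endothelial and meningeal genes, of which Col1a1 (−0.39) and Col1a2 (0.06) are in both lists, had a median of −0.34, although none passed. The summed level of that list of 10 was 18.1 to 36.9 CPM with Tbr1 shRNA and 19.7 to 51.5 CPM with nontargeting shRNA, lower in 6 of 6 pairs, and its part in the collagen count was not tested. Of 34 TGF-beta and BMP genes 5 fell (14.7%) and none rose, against 8.56% and 6.30% of all genes tested. The list median was −0.07, and without the block 1 of the 34 fell. Among the 5 were the ligand gene Tgfb3 (−0.70) and the receptor genes Tgfbr1 (−0.48), Acvr1 (−0.31) and Acvr1b (−0.26). All 3 receptor genes held a word in the 3′ UTR, and Tgfb3 did not, while 8 of the 34 tested held one.

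Among 47 autism-associated genes, which count Tbr1 itself, 17 fell (36.2%) and 1 rose, against 8.56% and 6.30% of all genes tested. The count that fell was 10 with the block in all 66 libraries, 12 with no virus as control, 6 in females alone and 1 without the block. They included Tbr1, Auts2 and Arid1b, a subunit gene of the BAF chromatin remodeller (−0.52). Arid1b spanned 62.4 to 106 CPM against 87.3 to 161 CPM, and no word was present in its 3′ UTR. Among the 8 other genes targeted in the series, Dnmt3a was lower (−0.18, edgeR adjusted p = 0.027), and the rest did not pass.

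**Figure D4:**
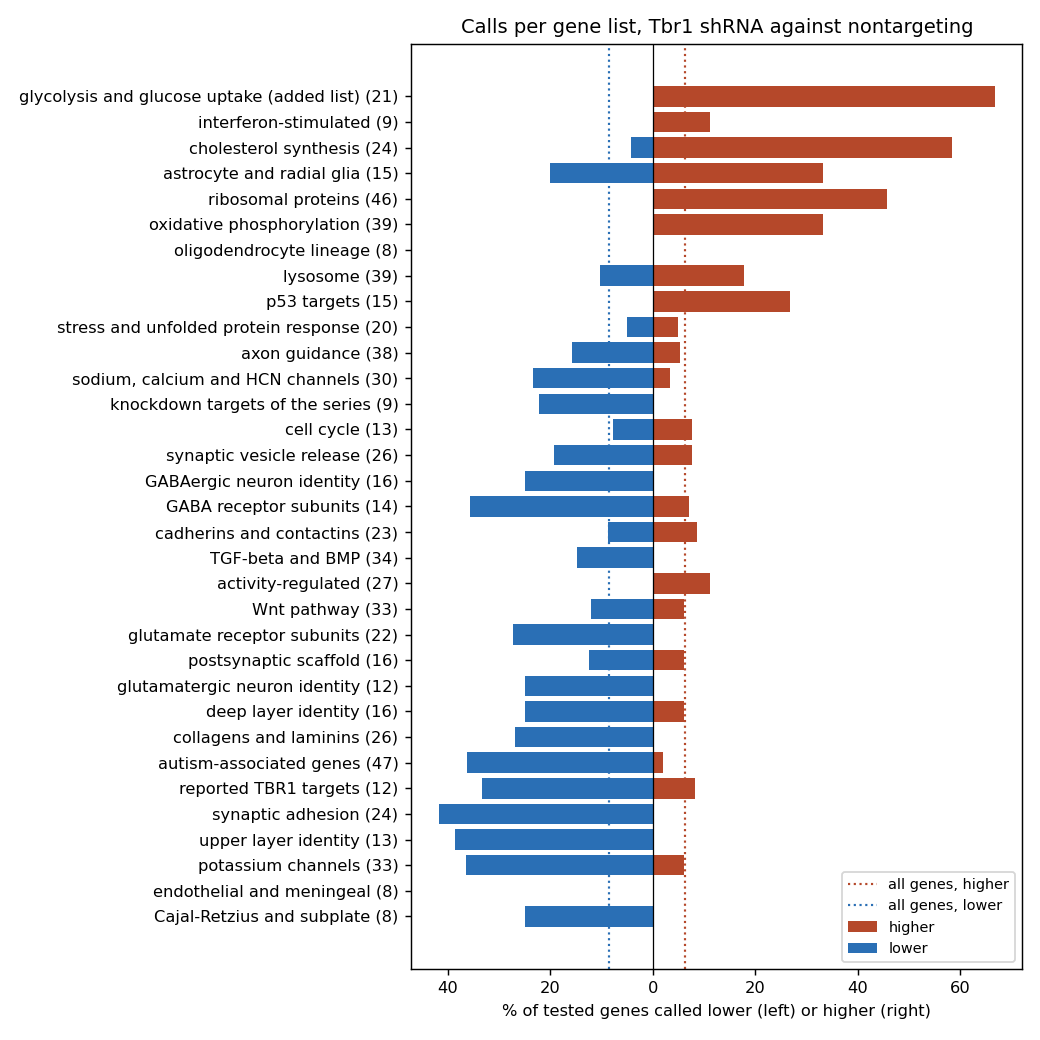
Share of the tested genes of each list (horizontal axis, per cent) that fell (blue, to the left) or rose (red, to the right), with the number tested in brackets and dotted lines at the shares over all genes, 8.56% lower and 6.30% higher. Lists are ordered by median log2 fold change; synaptic adhesion, upper layer and potassium channel genes extend to the left, and glycolysis, cholesterol synthesis and ribosomal protein genes to the right.

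Of 24 genes of cholesterol synthesis 14 rose (58.3%), against 6.30% of all genes tested, and the list median was 0.23. Insig1, whose product retains the pathway's activators in the endoplasmic reticulum, was the 1 member that fell (−0.33), and it held a 7-letter word. Mvd, of the mevalonate branch, spanned 91.5 to 196 CPM (median 161) against 67.6 to 128 CPM (median 98.0), a log2 fold change of 0.58 (SE 0.0720, edgeR adjusted p = 4.59e-05). Dhcr7, of the last steps, spanned 125 to 244 CPM against 104 to 145 CPM (log2 0.54, SE 0.0728). Both genes were higher in 6 of 6 pairs, with overlapping ranges. Idi1 (0.39), Sqle (0.25), Cyp51 (0.24) and the sterol carrier Stard4 (0.61) also rose, while Srebf2 (0.04) and Msmo1 (−0.05) did not pass. Against the mean of the 8 other knockdowns 17 of the 24 were higher and none lower, with Mvd at 0.62 and Tm7sf2 at 0.53. The list median against nontargeting libraries was 0.23 for Tbr1 shRNA and between −0.39 and 0.15 for the 8 others, which share those libraries. With the block in all 66 libraries 9 of the 24 were called higher, and without the block 1, at the same list median.

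Glycolysis and glucose uptake genes were put in a list after Hk2, Slc2a1 and Txnip had been seen, so their count describes these libraries. Of 21 genes 14 rose and none fell, with a list median of 0.29. Ldha, a lactate dehydrogenase subunit gene, spanned 1275 to 2237 CPM against 1030 to 1611 CPM (log2 0.44, SE 0.0781, edgeR adjusted p = 0.00167). Pgk1 (0.39), Eno1 (0.38), Pfkl (0.37) and Pkm (0.27) rose as well. Ldhb (0.03), Pfkm (0.05) and the neuronal glucose transporter gene Slc2a3 (0.18) did not pass. The count fell to 8 without the second female pair, to 6 with no virus as control, to 2 with the block in all 66 libraries and to 0 without the block. In the other knockdowns the list median against nontargeting libraries ran from −0.52 to 0.53, and against their mean 14 of the 21 genes were higher with Tbr1 shRNA. In separate fits 15 genes rose in females and 4 in males (medians 0.48 and 0.19), a difference that was not tested for the list.

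**Figure D5:**
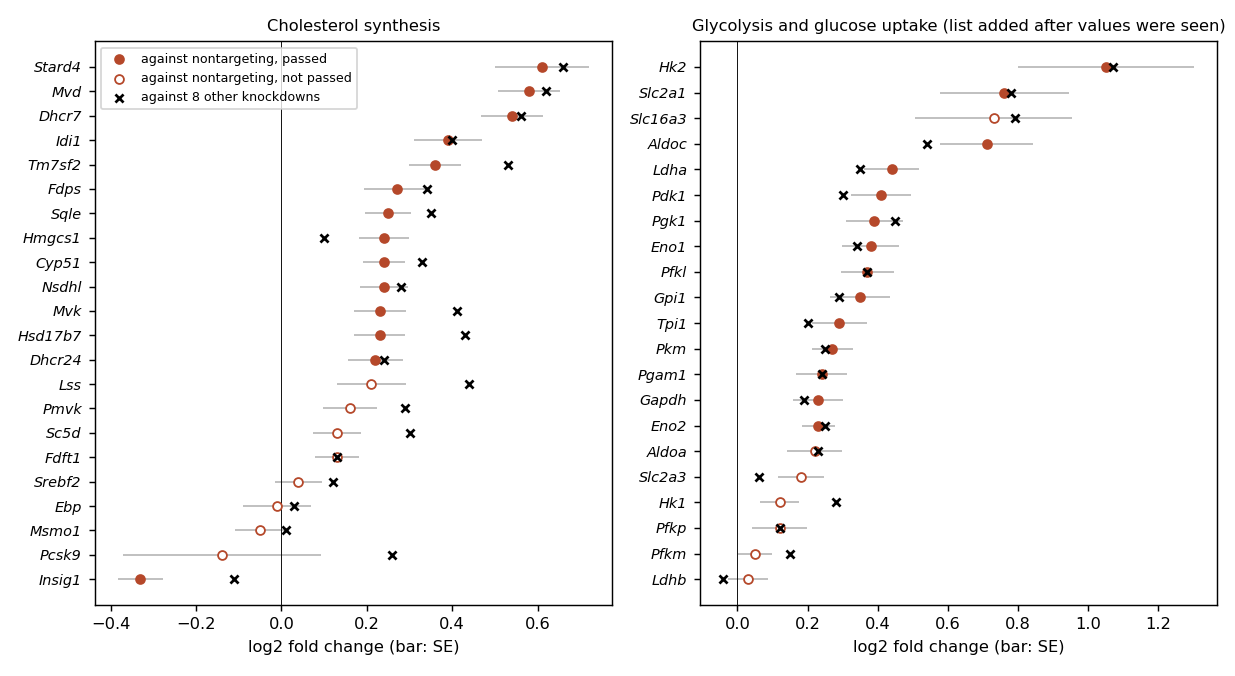
Log2 fold change (horizontal axis) of 22 cholesterol synthesis genes (left) and 21 glycolysis and glucose uptake genes (right) with Tbr1 shRNA, with circles and SE bars for the comparison with nontargeting shRNA (filled where the gene passed) and crosses for the comparison with the mean of the 8 other knockdowns. In cholesterol synthesis 13 circles are filled to the right of 0 and Insig1 (−0.33) to the left.

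Of 46 ribosomal protein genes 21 rose, none fell and 25 did not pass, with a median of 0.17. Of 39 oxidative phosphorylation genes 13 rose, none fell and 26 did not pass, with a median of 0.15. In the 8 other knockdowns these medians ran from −0.01 to 0.45 and from −0.19 to 0.38 against the same nontargeting libraries, so that both values for Tbr1 shRNA lay inside. Rps24 rose by 0.30 and Sdhd, of complex II, by 0.29. Many ribosomal protein genes have near-identical pseudogene copies, so reads may be divided between them. The ribosomal count fell to 13 without the second male, the third male or the second female pair, to 3 with the no virus libraries as control and to 0 without the block. The respiratory chain count fell to 6 without the second male pair, to 8 without the second female pair and to 0 without the block. Against the mean of the 8 other knockdowns 0 ribosomal and 7 respiratory chain genes were higher by edgeR. Stress lists changed little, with 1 of 20 genes higher and 1 lower in the unfolded protein response list and 1 of 9 higher in the interferon list. Of 15 p53 targets Zmat3 (0.48), Phlda3 (0.32), Ccng1 (0.30) and Cdkn1a (0.21) rose (26.7%, against 6.30% of all genes tested) and none fell. Against the mean of the 8 other knockdowns 2 of the 15 were higher, Zmat3 (0.49) among them, and 4 were lower. Phlda3, Ccng1 and Cdkn1a did not pass there, and without the block none of the 15 passed. Of 27 activity-regulated genes Egr2 (0.71), Arc (0.42) and Homer1 rose and none fell, with a list median of −0.08. Fitted alone, males gave 3 higher and 5 lower (median −0.31) and females none (median 0.12) by edgeR, without the third female pair 3 rose and 2 fell, and without the block none passed. Of 39 lysosome genes 7 rose (17.9%) and 4 fell (10.3%), against 6.30% and 8.56% of all genes tested. The share that fell was thus near that of all genes, and without the block 2 rose and 1 fell. The 4 that fell included the cholesterol exporter gene Npc1 (−0.52) and Epdr1 (−0.81), both with the 8-letter word.

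Tbr1 shRNA was also compared with the mean of the 8 other knockdowns, in a fit of all 66 libraries with no nontargeting library on either side, to set it beside other hairpins. Of 16145 genes tested 2750 differed (17.0%), with 1417 higher (8.78%) and 1333 lower (8.26%). Of the genes called against nontargeting shRNA 1258 were also called here in the same direction, 496 higher and 762 lower. The 2 comparisons share the 6 Tbr1 shRNA libraries. The strongest of the shared calls were Fbln2 (1.54, SE 0.161, edgeR adjusted p = 8.95e-11), Ivd, of leucine breakdown (0.47), the mitochondrial carrier gene Slc25a16 (0.46) and Ahcyl2 (0.53) among higher genes. Among lower genes they were Tbr1 (−1.34, edgeR adjusted p = 9.23e-20), Epdr1 (−0.92), Elmod2 (−0.77) and the kinase gene Nlk (−0.74). Epdr1 and Nlk held the 8-letter word and Elmod2 a 7-letter word. Of the 12 largest falls against nontargeting shRNA 11 were also lower here, Col19a1 being the exception (−0.43, edgeR adjusted p = 0.149). Of the 12 largest rises 10 were also higher here, while Txnip (0.44, edgeR adjusted p = 0.226) and Atp7b (0.43, edgeR adjusted p = 0.0614) did not pass.

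The effect of Tbr1 shRNA was compared between the sexes as an interaction. No gene passed with edgeR (0 of 15042, 449 at an unadjusted p under 0.05) or with DESeq2 (0, 325 at an unadjusted p under 0.05). All 2235 genes of the pooled comparison had the same direction in the male and the female fits, which use the same libraries as the pooled fit. Fitted alone, males gave 1208 called genes (8.03%; 369 higher, 2.45%, and 839 lower, 5.58%) and females 444 (2.95%; 150 higher, 0.997%, and 294 lower, 1.95%). These counts are no test of a difference. Tbr1 measured −1.49 in males and −1.40 in females. The smallest interaction p belonged to Stc2, a secreted glycoprotein gene, with −0.08 in males and 0.57 in females (unadjusted p = 2.35e-04 and adjusted p = 1 by edgeR), followed by Cfap43 (−0.44 and 0.40) and Ppp1r1b (0.53 and −0.08).

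The nontargeting hairpin itself was compared with no virus in the same way. Of 15215 genes 3 were lower (0.0197%) and none higher by edgeR, and 603 had an unadjusted p under 0.05. With the no virus libraries as the control in place of nontargeting shRNA, Tbr1 shRNA gave 1392 called genes, of which 1187 were also called against nontargeting shRNA in the same direction. Tbr1 itself was at −1.44 there.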

How the data were processed

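RNA of 66 cultures was measured as polyadenylated RNA with TruSeq Stranded mRNA libraries, per the labels' protocols. The authors deposited 1 table of read counts per gene. STAR, featureCounts and the mm10 build are named in the submitters' processing notes, and their versions and settings are not given in the sources used here. Of 48716 rows, 18483 had no gene symbol and were left out (0.715% to 1.04% of counts in the 12 libraries), and 149 that repeated a symbol were summed. Another 6 library columns were not used. Among counts of 1 to 20 only 27% were odd, against 49.3% of counts of at least 1000, so halved counts were tried as an alternative.

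Counts were tested in R 4.3.3 with edgeR 4.0.16 (limma 3.58.1): filterByExpr, TMM scaling, robust quasi-likelihood F test, Benjamini-Hochberg adjustment over all genes tested and a threshold of 0.05. SEs derive from the test statistic, and CPM from scaled library sizes. Pair differences add a prior count of 2 on the log2 scale. The script was tested on simulated data. Replicate numbers are shared in the labels. Deviations from group means correlated between same-numbered libraries by 0.56, 0.60 and 0.32 in females and 0.28, 0.24 and 0.22 in males, so number within sex was a block. All library pairs of a group differed by more than sampling noise. Alternatives were the fits named in the closing section, including DESeq2 1.42.0.

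Words, UTRs and exons come from GENCODE M21 (GRCm38, the same assembly as mm10), with 1 coding transcript per gene, preferring a 3′ UTR of at least 50 bases, then the longest coding sequence. Words in at least 200 genes were ranked, and no probability was attached. The members and gene lists were chosen with earlier results of these data known. Genes were named by rule: Tbr1, the 12 largest rises and falls among genes called, with 1 direction in 6 pairs and at least 5 CPM, up to 4 called genes per list by smallest p, all T-box, partner and target genes, and the strongest shared calls against the 8 other knockdowns. Other list members, and the glycolysis list, were chosen after their values were seen. Some genes are not reported here, though they stay in the counts and medians of their lists.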

Additional observations from a re-analysis of the deposited data

How the results depend on the processing

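The count of 2235 genes stayed within 1.5 times under DESeq2 (2455, with no adjusted p for 1167 genes), RLE size factors (2237), halved counts (2296) and no filter on low counts (2631). Without the replicate block it was 187, with 17.6% higher in place of 42.4%. It was 1181 with the block in all 66 libraries, 214 in all 66 without the block, 1392 with no virus as control, 1208 in males and 444 in females, and ran from 1367 to 2209 without each pair. Tbr1 stayed between −1.39 and −1.53 and past the threshold in all these fits. Against the 8 other knockdowns the count of 2750 was 932 without the block, and 3188 without the libraries labelled Setd5 shRNA male replicate 1 and Kdm6b shRNA male replicate 1. It ran from 1864 to 2582 without each Tbr1 shRNA library. The sex difference stayed at 0 without the block (84 at an unadjusted p under 0.05) and with DESeq2, an alternative chosen after seeing the data. Nontargeting shRNA against no virus gave 0 without the block by edgeR (115 at an unadjusted p under 0.05). The 3′ UTR word difference, an alternative set also added after seeing the data, stayed between −0.12 and −0.152. No named gene that passed changed sign in these fits, while Stc2, Cfap43, Ppp1r1b, Tspyl2, Nr4a2 and Fezf2, which did not pass, had opposite signs in males and females. Without the block 105 named genes no longer passed. The cause of the changes with each setting was not tested. Depth limits low genes most, and 3 libraries a sex leave small changes within replicate error.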
